A study of Homo sapiens with 2 samples.

Results

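The genes described here were 10 members of the SOX family of transcription factors, SOX2, SOX3, SOX21, SOX4, SOX11, SOX5, SOX6, SOX8, SOX9 and SOX10, chosen by name out of 33694 gene rows in each of 2 single-cell RNA sequencing libraries. Both libraries came from H9, an established human embryonic stem cell line that was directed towards the enteric neural crest, the embryonic precursor of the gut's nervous system. The day 10 library held adherent cells on Geltrex during the induction. The day 15 library held enteric crestospheres, which are free-floating spheres kept in suspension in medium with FGF2 and the WNT pathway activator CHIR 99021. By the paper's methods the induction medium also held CHIR 99021, and its later feeds held retinoic acid. Cells of 2 biological repeats went into each library and the deposited tables do not tell them apart. Each stage was therefore 1 sample, and stage, culture format, medium and library cannot be told apart. No p-value is given for that reason, and every interval below is a 95% interval for counting error only.

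SOX proteins bind DNA through a shared high mobility group box, which bends the helix at a short AT-rich core. SoxB1 factors (SOX2, SOX3) hold neural progenitors undifferentiated, and the SoxB2 factor SOX21 opposes them. SoxC factors (SOX4, SOX11) are known for turning on neuronal genes in postmitotic neuroblasts, SoxD factors (SOX5, SOX6) lack an activation domain and work as partners of other SOX proteins, and SoxE factors (SOX8, SOX9, SOX10) specify and maintain neural crest. In enteric development SOX10 keeps the crest progenitors multipotent and drives the glial lineage.

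The depositors' cell labels were used: enteric neural crest cells (ENCC), neuro-epithelial progenitors (NEP), cranial placode (CP; CP1 and CP2 at day 15), non-neural ectoderm (NNE) and mesenchyme (Mes). After their quality filters 7295 of 9627 cells remained at day 10 (4921 ENCC, 1811 NEP, 324 CP and 239 NNE) and 5336 of 6320 at day 15 (4934 ENCC, 104 NEP, 208 CP1, 43 CP2 and 47 Mes). The median depth was 7101 UMIs (unique molecular identifiers, each counting 1 captured RNA molecule) per kept cell at day 10 and 11089 at day 15, and 102 barcodes occurred in both libraries. Levels are given as CPM, the UMIs of a gene per 1000000 UMIs of the class. They serve to compare 1 gene between classes and not 2 genes with each other, because a 3′ count also depends on how well each transcript is captured. The labels came from clustering these cells on their expression, SOX genes included, and ENCC were named for SOX10 and FOXD3, so differences between labels are descriptions and the high SOX10 level of ENCC is no finding.

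Not every label was borne out by its markers. Among the 10 leading genes of the cells labelled CP at day 10 were 3 sensory neuroblast markers (STMN2, NEUROD1, ISL1) and 1 placode marker. CP1 led with 2 neuroblast markers and 1 placode marker, CP2 with the neuro-epithelial marker PAX6 and no placode marker, and the day 15 cells labelled NEP with EMX2 beside the epithelial keratins KRT18 and KRT19. Of the day 10 ENCC, 256 stood outside the numbered subclusters. In these the summed level of 6 NEP markers was 1177 CPM, against 94.9 CPM over all ENCC, and 1470 CPM in NEP, and that of 6 ENCC markers was 556 CPM against 2025 CPM. They also held 992 CPM of 6 NNE markers. Day 10 NEP held 1387 CPM of those NNE markers, against 109 CPM in ENCC and 5478 CPM in NNE. The cells labelled CP at day 10 held 1135 CPM of the ENCC markers and 485 CPM of 6 CP markers.

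All 10 members had a row in the matrix and a protein-coding annotation in GENCODE (GRCh38). The SoxB and SoxC genes lie at chromosome 3, 181711924-181714436 (SOX2), X, 140502985-140505116 (SOX3), 13, 94709622-94712399 (SOX21), 6, 21592768-21598619 (SOX4) and 2, 5692667-5701385 (SOX11). The SoxD genes SOX5 (12, 23529500-24562544) and SOX6 (11, 15966449-16739591) span far longer loci than SOX8 (16, 981808-986979), SOX9 (17, 72121020-72126420) and SOX10 (22, 37970686-37987422). SOX2 lies within SOX2-OT, a noncoding gene on the same strand with no row in the matrix, so no count of it stands beside that of SOX2.

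RefSeq upstream windows were at hand for 6 members, which had 10 annotated starts. Each window of 250 bases was searched on both strands for the SOX cores ACAAAG and ACAATG, with overlapping matches counted. At least 1 core was present in 4 of the 10 windows, against 21.2% of 35116 promoter windows of the same length. SOX6 was the only member with more than 1 start. The windows with a core were those of SOX2 and SOX5 and some of those of SOX6, so the share does not describe the family. No window was at hand for SOX8, SOX9, SOX10 or SOX11. Those of SOX2 and SOX3, the SoxB1 pair whose levels ran apart in these cells, and of SOX5, which followed ENCC at both stages, are shown 5′ to 3′ (GRCh38.p14), cut where the gene begins in either annotation, with the cores in capitals.
SOX2, chr3:181711675-181711923, plus strand: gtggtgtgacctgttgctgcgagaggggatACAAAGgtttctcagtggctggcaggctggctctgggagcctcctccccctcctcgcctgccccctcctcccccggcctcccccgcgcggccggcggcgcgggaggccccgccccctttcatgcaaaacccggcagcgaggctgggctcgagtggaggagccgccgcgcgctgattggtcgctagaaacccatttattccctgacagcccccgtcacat
SOX3, chrX:140505117-140505319, minus strand: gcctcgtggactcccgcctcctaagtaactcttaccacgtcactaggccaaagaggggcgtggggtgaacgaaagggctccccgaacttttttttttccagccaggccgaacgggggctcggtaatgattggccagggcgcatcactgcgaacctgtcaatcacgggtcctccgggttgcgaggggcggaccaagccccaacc
SOX5, chr12:24562545-24562741, minus strand: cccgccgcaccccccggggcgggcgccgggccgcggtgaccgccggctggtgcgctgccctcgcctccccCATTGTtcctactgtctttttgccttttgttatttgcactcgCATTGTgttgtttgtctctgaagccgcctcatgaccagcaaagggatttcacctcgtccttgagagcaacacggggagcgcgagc
The SOX2 window held 1 core, 220 bases before the RefSeq start. The SOX5 window held 2, at 180 and 138 bases before it. The SOX3 window held none of these letters. A match is a run of letters and not a shown binding site.

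SOX2 was not confined to the neuro-epithelial label. At day 10 it stood at 21.2 CPM in ENCC (19.8-22.8, from 785 UMIs), 16.1 CPM in NEP (14.1-18.3), 13.2 CPM in CP (9.06-18.5) and 3.25 CPM in NNE (1.19-7.07). ENCC were therefore above NEP, with a NEP to ENCC ratio of 0.758 (0.651-0.880), and the intervals of NEP and CP overlapped. At day 15 the level was 22.0 CPM in ENCC (20.8-23.3) and 29.6 CPM in NEP (20.5-41.4), a ratio of 1.34 whose interval of 0.927-1.89 includes 1. It was 1.26 CPM in CP1 (0.259-3.67, from 3 UMIs), which is 0.0570 times the ENCC level (0.0117-0.167). The CP2 value of 29.9 CPM rested on 12 UMIs in 3 cells, 7 of them in 1 cell.

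SOX3, the other SoxB1 gene, was near absent from ENCC. At day 10 its level was 5.20 CPM in NEP (4.08-6.54, from 73 UMIs) and 0.352 CPM in ENCC (0.187-0.602, from 13 UMIs), a NEP to ENCC ratio of 14.8 (8.13-29.1). CP and NNE held 1 UMI each. Of the 13 ENCC UMIs, 9 lay in the 256 cells outside the numbered subclusters, where SOX3 was at 4.00 CPM (1.83-7.59) beside the NEP markers given above. The numbered subclusters held 3 UMIs in ENCC 1, 1 in ENCC 2 and none in ENCC 3 or ENCC 4. At day 15 the cells labelled NEP held 21 UMIs in 16 of 104 cells, or 18.3 CPM (11.3-28.0), and the 4934 ENCC held 4, or 0.0716 CPM (0.0195-0.183). SOX3 was therefore higher in the NEP label than in ENCC at both stages, while for SOX2 the order of the labels was not the same at day 10. SOX21, the SoxB2 repressor, gave 25 UMIs in all 9627 cells at day 10 and 2 in all 6320 at day 15, too few to order the classes.

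**Figure D1:**
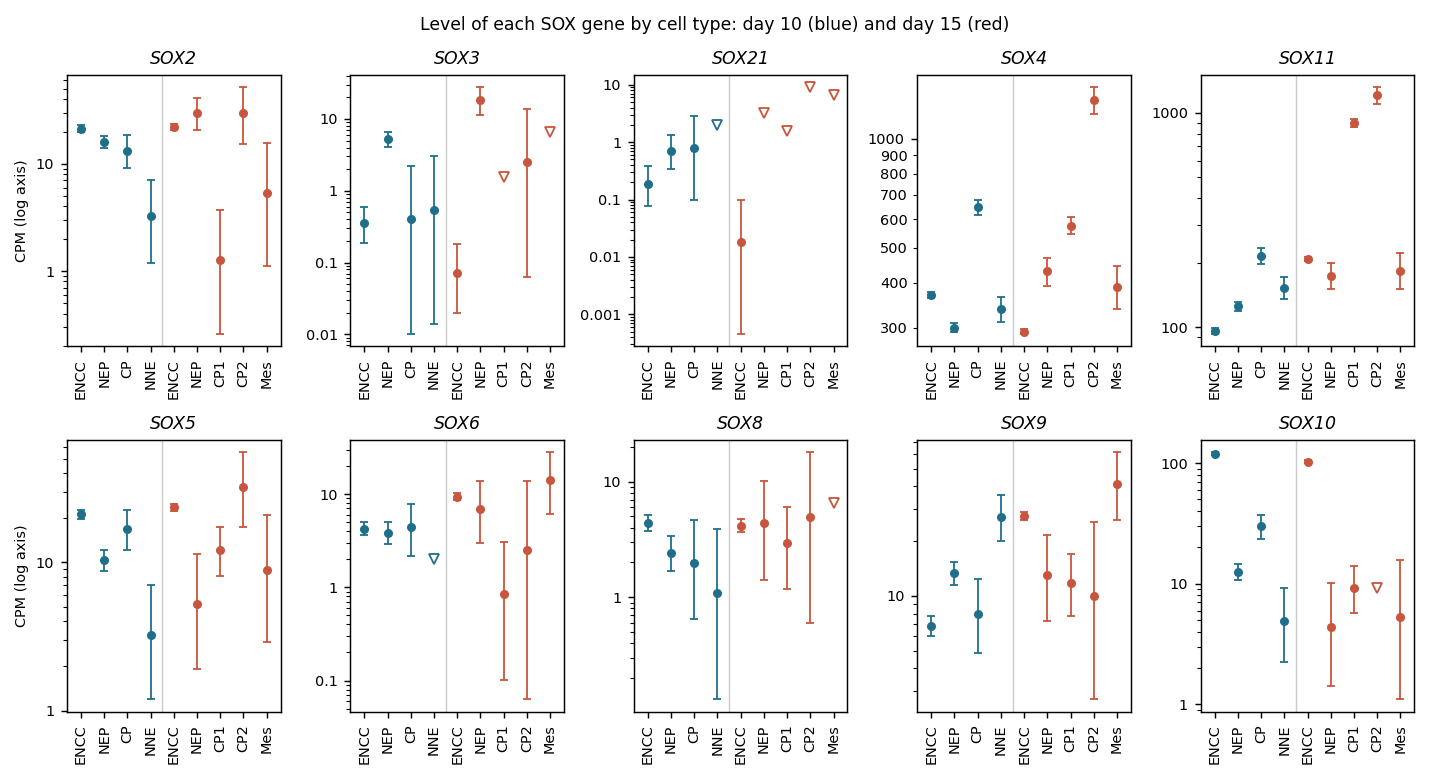
Level in CPM (log axis, scaled separately in each panel) of the 10 SOX genes in each labelled cell type at day 10 (blue) and day 15 (red). Points are summed counts, bars are exact 95% Poisson intervals, and open triangles mark the upper limit where no UMI was counted. SOX3 peaks in NEP at 5.20 and 18.3 CPM, SOX11 in the placode labels at 215, 899 and 1211 CPM, and SOX10 in ENCC at 120 and 103 CPM.

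SOX4, a SoxC factor, was high in every class. Its day 10 levels were 370 CPM in ENCC (364-376), 301 CPM in NEP (292-310), 647 CPM in CP (615-679) and 339 CPM in NNE (313-366). Only CP stood well apart, at 1.75 times ENCC (1.66-1.84). At day 15 the levels were 293 CPM in ENCC (289-298), 430 CPM in NEP (393-469), 389 CPM in Mes (339-444), 575 CPM in CP1 (545-606) and 1276 CPM in CP2 (1168-1392). NEP and Mes overlapped in their intervals. ENCC were the lowest class, and CP1 was at 1.96 times ENCC (1.86-2.07) and CP2 at 4.35 times (3.98-4.75).

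SOX11, the other SoxC member, was more steeply graded. At day 10 it ran from 96.1 CPM in ENCC (92.9-99.3) through 125 CPM in NEP (119-131) and 152 CPM in NNE (135-171) to 215 CPM in CP (197-233). The intervals of these 4 classes did not overlap, but they cover counting error only. Under other processing settings the NEP to ENCC log2 ratio of SOX11 ranged from 0.06 to 0.45, against 0.38 here. At day 15 it was at 173 CPM in NEP (150-199), 184 CPM in Mes (150-223) and 208 CPM in ENCC (205-212), of which only NEP and ENCC were separated, against 899 CPM in CP1 (862-938) and 1211 CPM in CP2 (1106-1324). CP1 was thus 4.31 times ENCC (4.12-4.52) and CP2 5.81 times (5.30-6.36). Both SoxC genes were highest in the labels that led with neuroblast genes or, for CP2, held 3749 CPM of the 6 neuroblast markers together.

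Within the day 10 cells labelled CP, SOX4 and SOX11 parted. Each cell was thinned to 3000 UMIs, and 106 cells showed at least 2 of 6 neuronal genes (STMN2, ELAVL4, NEUROD1, NEUROD4, ISL1, POU4F1) while 217 showed fewer. SOX11 was at 365 CPM (301-438) in the first set and 183 CPM (151-219) in the second. SOX4 was at 616 CPM (533-709) and 676 CPM (614-742), with overlapping intervals. SOX10 was at 6.29 CPM (0.762-22.7, from 2 UMIs) in the cells with neuronal genes and 46.1 CPM (31.1-65.8, from 30 UMIs) in the others. The 87 cells with exactly 1 of the 6 genes lie next to this limit, and counting them among the neuronal cells left the SOX11 log2 difference at 1.07 against 0.99. The SOX10 gap narrowed to 19.0 CPM (9.48-34.0) against 53.8 CPM (33.3-82.3), with intervals that narrowly overlapped. At day 15, 200 of 208 CP1 cells passed, which left 8 cells and no useful comparison.

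**Figure D2:**
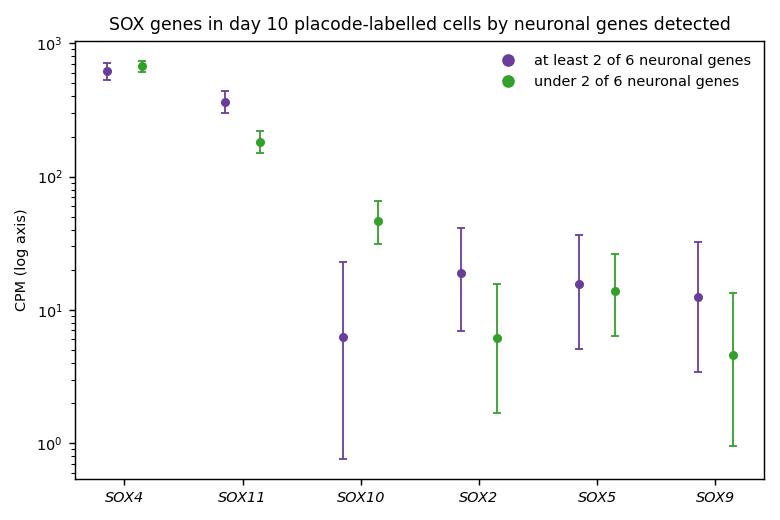
CPM (log axis) of 6 SOX genes in the day 10 cells labelled CP, divided by whether at least 2 of 6 neuronal genes (purple, 106 cells) or fewer (green, 217 cells) were detected after thinning each cell to 3000 UMIs. Bars are exact 95% Poisson intervals. SOX11 is higher in the neuronal set (365 against 183 CPM), SOX10 lower (6.29 against 46.1 CPM), and the SOX4 intervals overlap.

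SOX5, a SoxD factor, followed ENCC at both stages. Its day 10 levels were 21.1 CPM in ENCC (19.7-22.7), 16.8 CPM in CP (12.1-22.6), 10.3 CPM in NEP (8.72-12.2) and 3.25 CPM in NNE (1.19-7.07). The intervals of ENCC and CP overlapped, and NEP was at 0.489 times ENCC (0.406-0.584). At day 15 it was at 23.5 CPM in ENCC (22.2-24.8), 12.1 CPM in CP1 (8.13-17.4), 8.92 CPM in Mes (2.90-20.8) and 5.23 CPM in NEP (1.92-11.4), and the CP2 value of 32.3 CPM came from 13 UMIs. SOX6 did not set ENCC apart at day 10, at 4.25 CPM in ENCC (3.61-4.97), 3.85 CPM in NEP (2.89-5.02) and 4.39 CPM in CP (2.19-7.85). None of its UMIs fell in NNE, where 3 UMIs would be 1.62 CPM. At day 15 SOX6 was at 9.35 CPM in ENCC (8.56-10.2), 6.97 CPM in NEP (3.01-13.7) and 14.3 CPM in Mes (6.16-28.1), which overlapped, against 2 UMIs in CP1.

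The SoxE genes did not share a pattern. SOX10 was at 120 CPM in ENCC at day 10 (116-123), 29.9 CPM in CP (23.5-37.5), 12.6 CPM in NEP (10.8-14.6) and 4.87 CPM in NNE (2.23-9.25), a fully separated order. At day 15 it was at 103 CPM in ENCC (100-106), 9.21 CPM in CP1 (5.77-13.9), 5.35 CPM in Mes (1.10-15.6) and 4.36 CPM in NEP (1.42-10.2). The 43 CP2 cells held no SOX10 UMI, where 3 UMIs would be 7.46 CPM. SOX9, known from crest induction, cartilage and several epithelial progenitors, ran the other way at day 10. It was at 6.82 CPM in ENCC (6.004-7.72), 7.98 CPM in CP (4.87-12.3), 13.4 CPM in NEP (11.5-15.4) and 27.1 CPM in NNE (20.1-35.7), so ENCC were at the bottom of the order, overlapping CP. NEP was at 1.96 times ENCC (1.62-2.38) and NNE at 3.97 times (2.87-5.40). At day 15 SOX9 was at 27.4 CPM in ENCC (26.0-28.8), above 13.1 CPM in NEP (7.32-21.6), 11.7 CPM in CP1 (7.79-16.9) and 9.95 CPM in CP2 (2.71-25.5), and below a Mes value of 41.0 CPM (26.0-61.5) whose interval overlapped it. SOX8 was sparse, at 4.41 CPM in ENCC (3.76-5.14) and 2.42 CPM in NEP (1.68-3.38) at day 10, and at 4.15 CPM in ENCC (3.64-4.72) and 4.36 CPM in NEP (1.42-10.2) at day 15.

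The members were then counted beside all genes. Genes were counted when they reached 10 CPM in at least 1 class of the comparison, and a difference was counted when the ratio passed 2-fold after adding 1 CPM to both levels. For NEP against ENCC at day 10, 6 members reached the minimum, 1 was lower (SOX10) and none was higher, where 2.71% of 7726 genes were lower and 12.6% higher. With TMM scaling, which moved the median log2 ratio of all genes from 0.16 to -0.17, 60.2% of the counted genes were higher instead of 82.3%, and SOX5 joined SOX10 among the lower. For CP against ENCC at day 10, 1 of 5 was higher (SOX11) and 1 lower (SOX10), where 5.48% and 2.10% of 7099 genes were. For CP1 against ENCC at day 15, 1 of 6 was higher (SOX11) and 3 were lower (SOX2, SOX9, SOX10), where 16.2% and 6.36% of 7706 genes were. TMM scaling moved that median from 0.21 to -0.16, brought the higher share of counted genes from 71.8% to 48.9% and raised the lower members to 5. The median log2 ratio of the members was -0.34 against 0.16 for all genes in NEP, -0.32 against 0.02 in CP, and -1.03 against 0.21 in CP1. Before TMM scaling SOX10 was the only lower member in NEP and CP, and 1 of the 3 in CP1. ENCC were named for SOX10, so its lower calls are no finding, and the member medians include it.

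Between the stages, SOX9 and SOX11 were the 2 members past 2-fold within ENCC among those that reached 10 CPM. SOX9 was at 6.82 CPM at day 10 and 27.4 CPM at day 15, a ratio of 4.01 (3.51-4.60). It was on the same side of 2-fold in each cell cycle phase that the depositors assigned, with 5.64 against 24.5 CPM in G1, 6.94 against 29.6 CPM in S and 7.94 against 27.2 CPM in G2M cells. SOX11 was at 96.1 CPM at day 10 and 208 CPM at day 15, a ratio of 2.17 (2.09-2.25). Of the 6 members that reached 10 CPM none was lower past 2-fold, and the background was that 8.10% of 7101 genes were higher and 5.39% lower. The share of counted genes that were higher was 60.0%, and 74.3% with TMM scaling, which moved the median from -0.14 to 0.06.

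SOX6 stayed under the minimum at both stages, at 4.25 CPM at day 10 and 9.35 CPM at day 15 (ratio 2.20, 1.84-2.65). SOX3 (13 UMIs at day 10, 4 at day 15) and SOX21 (7 and 1) had ratios of 0.204 (0.0484-0.659) and 0.0945 (0.00210-0.736), and 9 of the 13 SOX3 UMIs were those outside the numbered subclusters. For the remaining members the day 15 to day 10 ratio was 1.04 for SOX2 (0.948-1.14), 1.11 for SOX5 (1.02-1.22), 0.942 for SOX8 (0.767-1.16), 0.861 for SOX10 (0.828-0.896) and 0.793 for SOX4 (0.775-0.811). SOX9 and SOX11 were thus past 2-fold between the stages, while SOX10 and SOX4 of the same groups stayed within it. Across other processing settings and cell cycle phases the log2 ratio ranged from -0.38 to -0.0015 for SOX10. For SOX4 it ranged from -0.39 to -0.15. Thinned to 3000 UMIs, the share of ENCC with a SOX9 UMI was 1.75% (1.40-2.15) at day 10 and 7.72% (6.99-8.50) at day 15, and unthinned it was 4.61% and 23.5%. For SOX10 the thinned shares were 30.1% and 25.2%, while the unthinned shares of 56.5% and 62.9% ran in the opposite order with the greater depth at day 15. Outside ENCC, 0.851% of 235 thinned NNE cells at day 10 held a SOX10 UMI, at a median of 7349 UMIs against 7004 in ENCC. In day 10 NEP, 39 thinned cells held a SOX10 UMI and 1759 did not. Whether such UMIs were free RNA was not tested.

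**Figure D3:**
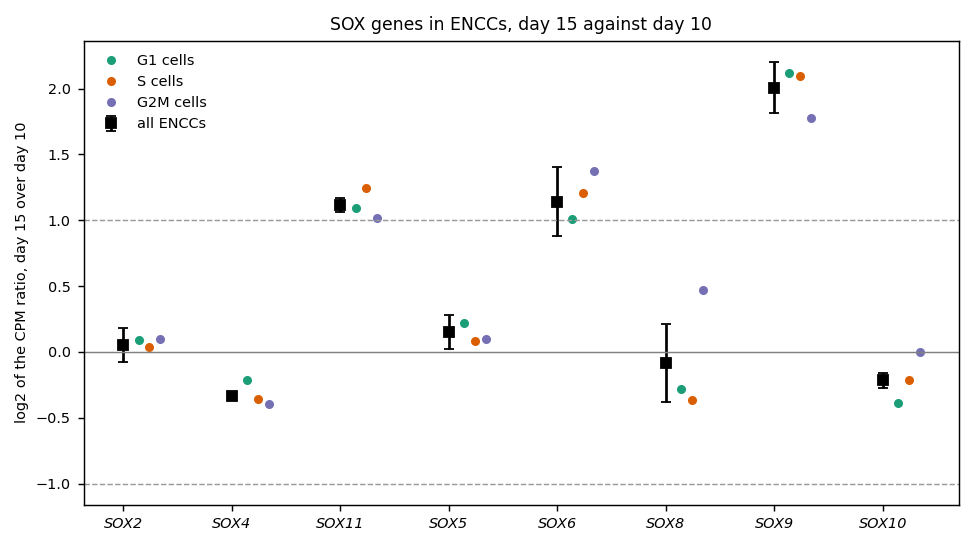
Log2 of the day 15 to day 10 CPM ratio within ENCC for 8 SOX genes, over all ENCC (black squares with 95% intervals for counting error) and in G1, S and G2M cells separately (coloured points). Dashed lines mark 2-fold. SOX9 (ratio 4.01), SOX11 (2.17) and SOX6 (2.20) lie above the upper line over all ENCC and in each phase. The interval of SOX6 crosses that line, and no gene nears the lower line.

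Inside ENCC, the subclusters differed in SoxC level more than in SOX10 at day 10. SOX11 ran from 46.3 CPM in ENCC 3 (37.8-56.1) and 61.2 CPM in ENCC 1 (58.0-64.5) through 76.7 CPM in ENCC 4 (62.8-92.8) to 195 CPM in ENCC 2 (185-205), so that ENCC 2 was at 3.19 times ENCC 1 (2.96-3.43). SOX4 followed, at 551 CPM in ENCC 2 (535-568), 432 CPM in ENCC 4 (398-468), 324 CPM in ENCC 3 (301-348) and 307 CPM in ENCC 1 (299-314). SOX10 stayed at 126, 127 and 128 CPM in ENCC 1, 2 and 3 and was at 104 CPM in ENCC 4 (87.9-123). SOX5 was lowest in ENCC 3, at 9.35 CPM (5.79-14.3) against 23.2 CPM in ENCC 2 (20.0-26.7). ENCC 2 led with the splicing and signalling genes HNRNPH1 and CTNNB1, ENCC 3 with the mitotic genes CDC20 and BIRC5, and ENCC 4 with the neurogenic genes NEUROG1 and DLL3. In ENCC 4, 1 SOX9 UMI was counted in 187 cells (0.724 CPM, 0.0183-4.03), against 6.58 CPM in ENCC 1 (5.57-7.71). Outside the numbered subclusters SOX10 was at 26.2 CPM (20.0-33.8), 0.208 times ENCC 1 (0.158-0.268), and SOX11 was at 2.57 times ENCC 1 (2.28-2.89).

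At day 15 the pattern was different. SOX11 lay between 169 CPM in ENCC 4' (149-191) and 219 CPM in ENCC 2' (214-225). SOX4 was higher in ENCC 3' at 423 CPM (409-437) and ENCC 4' at 405 CPM (374-438) than in ENCC 1' at 272 CPM (265-280) and ENCC 2' at 262 CPM (256-268). ENCC 3', which led with the melanocyte genes MLANA, DCT, PMEL and MITF, had the lowest SOX2 level at 14.4 CPM (11.9-17.2), 0.601 times ENCC 2' (0.490-0.732), and the highest SOX6 level at 13.2 CPM (10.8-15.9). SOX10 was at 116 CPM in ENCC 2' (112-120) and 52.8 CPM in ENCC 4' (41.8-65.7), a ratio of 0.454 (0.359-0.567) for ENCC 4', which led with HES7, JUN and the glucose transporter gene SLC2A3. SOX9 lay between 23.5 and 31.0 CPM in all 4. From the highest to the lowest numbered subcluster, 2 of 5 members passed 2-fold at day 10 (SOX11 and SOX5), where 11.3% of 7211 genes did. At day 15, 2 of 7 did (SOX2 and SOX10), where 25.9% of 7082 genes did, so the day 15 share was near that of all genes.

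Cells with and without a SOX10 UMI were then compared inside ENCC, each thinned to 3000 UMIs. At day 10, 1482 ENCC held a SOX10 UMI and 3437 did not. SOX2 was found in 6.68% of the first (5.46-8.07) and 6.28% of the second (5.50-7.15), SOX4 in 64.4% and 63.5%, SOX11 in 22.8% and 23.5%, and SOX9 in 1.82% and 1.72%. SOX8 was found in 1.96% (1.31-2.80) against 1.13% (0.808-1.55). The intervals of each pair overlapped. Thinned to 5000 UMIs instead, which kept 1969 and 2450 day 10 ENCC with and without SOX10, SOX4 was separated at 81.3% (79.5-83.01) against 77.7% (76.01-79.3), and SOX8 was at 2.34% against 2.45%, the opposite order. At day 15 the shares with SOX10 (1244 cells) and without (3690 cells) were 6.99% and 6.21% for SOX2, 42.3% and 41.7% for SOX11, and 6.99% (5.64-8.56) and 7.97% (7.11-8.89) for SOX9. The higher SOX9 share at day 15 was therefore present in ENCC with and without a detected SOX10 UMI. Thinned to 5000 UMIs, the day 15 SOX9 shares were 10.5% (9.12-11.9) with SOX10 and 12.9% (11.8-14.2) without. They stood wider apart there, with intervals that narrowly overlapped. At either depth a cell without a UMI may still hold the transcript, so these shares do not separate positive from negative cells.

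**Figure D4:**
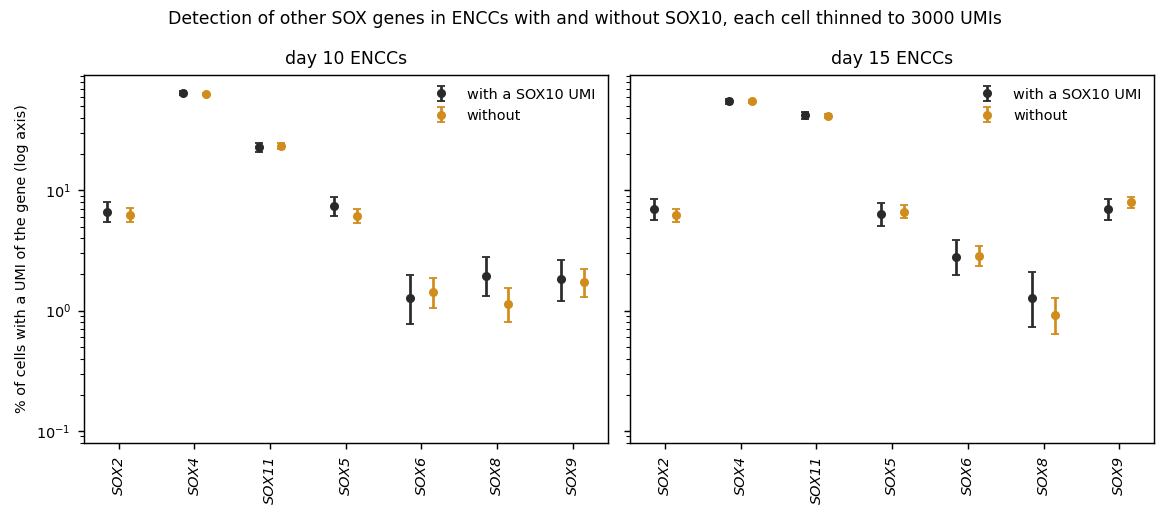
Share of ENCC (percent, log axis) with a UMI of each of 7 other SOX genes, in cells with (black) and without (orange) a SOX10 UMI, at day 10 and day 15, each cell thinned to 3000 UMIs, with exact 95% binomial intervals. At this depth the black and orange intervals overlap for each gene, and the SOX9 pair sits at 1.82% and 1.72% at day 10 and at 6.99% and 7.97% at day 15.

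Genes that work with each SOX group were read beside it. Against ENCC, the shares of all genes past 2-fold were 12.6% higher and 2.71% lower in day 10 NEP. They were 5.48% and 2.10% in CP, and 16.2% and 6.36% in CP1. Within ENCC between the stages they were 8.10% and 5.39%. Of 14 SoxE partners and targets, 10 reached the minimum in NEP against ENCC at day 10 and 8 were lower, with a median log2 ratio of -2.65. Among the largest ratios were those of the crest factor TFAP2B (36.3 against 425 CPM) and the receptor gene ERBB3 (9.40 against 68.8 CPM). FOXD3, for which ENCC were named, is also on the list, so its lower calls are no finding. In CP1 against ENCC at day 15, 10 of 12 were lower, with a median of -3.34, and SOX9 and SOX10 were both lower there. In CP at day 10, 7 of 11 were lower and 2 higher, among them TFAP2A (112 against 35.6 CPM), which is also expressed outside the crest. Between the stages within ENCC, 3 of 12 were higher, the pigment gene DCT (0.758 CPM at day 10, 12.1 CPM at day 15), MIA (1.52, 14.4 CPM) and the melanocyte regulator MITF (19.1, 43.2 CPM). Another 3 were lower, among them TFAP2B (425, 152 CPM) and PAX3 (65.0, 29.5 CPM). That list did not move 1 way while SOX9 was higher and SOX10 within 2-fold.

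Of 10 SoxB1 partners and neuro-epithelial genes, 4 of the 6 that reached the minimum were higher in NEP at day 10, namely PAX6 (572 against 34.2 CPM), OTX2 (68.0 against 10.9 CPM), PROM1 (10.9 against 0.893 CPM) and the cadherin gene CDH2 (135 against 31.9 CPM). None was lower. The paper named NEP for WNT2B and PAX6, so the higher PAX6 level is no finding. The median log2 ratio, which includes PAX6, was 2.29, on the side of SOX3 and not of SOX2. Between the stages within ENCC the intermediate filament gene NES was higher (23.6, 88.4 CPM), PAX6 (34.2, 0.197 CPM) and OTX2 (10.9, 1.31 CPM) were lower, and SOX2 was within 2-fold. The 6 NEP markers, PAX6 and OTX2 among them, summed to between 21.7 and 26.9 CPM in the numbered day 10 subclusters against 1177 CPM in the ENCC outside them, and how much those cells add to the 2 differences was not tested. Of 12 SoxC targets and neurogenic genes, 9 of the 10 measured were higher in CP at day 10 and 9 of 10 in CP1 at day 15, with medians of 5.17 and 5.52. The largest ratios in CP1 were those of the stathmin gene STMN2 (1543 against 14.3 CPM), the neurogenic factor NEUROD1 (530 against 4.26 CPM), the RNA-binding protein gene ELAVL3 (244 against 2.15 CPM) and the sensory neuron factor POU4F1 (282 against 3.06 CPM). TEAD2, a listed SoxC target and the remaining gene, was at 38.1 against 42.2 CPM. In ENCC between the stages, where SOX11 was higher, only 3 of the 12 reached the minimum, STMN2 was higher (0.677, 14.3 CPM), NEUROG1 was lower (13.2, 0.179 CPM), and TEAD2 stayed within 2-fold (63.6, 42.2 CPM).

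The other 9 SOX genes with a row were mostly near the detection floor. SOX12, the third SoxC gene, was the only one past the minimum in these comparisons, at 17.8 CPM in ENCC, 18.02 CPM in NEP and 16.4 CPM in CP at day 10, and at 24.5 CPM in ENCC and 37.7 CPM in CP1 at day 15. It passed 2-fold in none of them, unlike SOX11. SOX15, named after its values were seen, was at 18.4 CPM in NNE at day 10 (34 of 52 UMIs in kept cells) and 0.0812 CPM in ENCC.

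Over 17 labels and subclusters of both libraries, the gene most like SOX10 was GAS7 (Pearson r = 0.98), followed by FOXD3-AS1 (0.96) and LPAR6 (0.94). Those most like SOX3 were LGI1 (0.95), NDUFB5 (0.94) and CFAP53 (0.93), and those most like SOX11 were MORC2 (0.94), R3HDM2 (0.93) and ATF5 (0.91). SOX6 went with PREX2 (0.92), RAMP2 (0.87) and SMIM24 (0.81), and SOX9 with CPNE2 (0.87), C19orf24 (0.86) and COPRS (0.86). SOX4 went with DCC, ONECUT3 and SHOX2 (0.87 each), SOX5 with GFRA2 (0.83), FAM19A5 (0.83) and THY1 (0.83), and SOX2 with TSPAN18 (0.83), ST3GAL2 (0.77) and CLEC11A (0.76). The SoxC pair SOX4 and SOX11 correlated at 0.62, and the SoxE pair SOX9 and SOX10 at -0.24. These are descriptions over points that share 2 libraries and differ in cell number and depth, picked as the best of 10493 genes, and by Spearman's rho none of the 3 leading genes of SOX3, SOX4 or SOX11 was kept.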

How the data were processed

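Libraries were made with a 10x Genomics 3′ kit, 1 per stage. The authors deposited raw UMI counts per gene and cell, which the methods trace to kallisto and bustools and the submitters' processing notes to Cell Ranger (GRCh38), with Seurat 4.0.4. The deposited metadata held cell labels, cell cycle phase, and per-cell totals as counts, mitochondrial and ribosomal shares in percent, and a per-cell novelty score that was not used. Cells removed by the depositors' filters were left out of each class. The members and gene lists were chosen with earlier results of these data known. Counts were summed per class and divided by the class total (CPM). Intervals are exact (Poisson, conditional binomial for ratios, Clopper-Pearson for shares) at 95%, and cover counting error only. Log2 ratios used CPM + 1, calls a 2-fold limit and a minimum of 10 CPM. Shares used cells thinned to 3000 UMIs, leaving out 2 ENCC, 13 NEP, 1 CP and 4 NNE cells at day 10. Doublets were not called. The genes named are the members, up to 4 genes of a list by size of ratio, and the 3 genes with the highest Pearson r to each member, and leading genes come from the 10 that set each class apart most. The steps were tested on simulated counts. Python 3.11.15, scipy 1.17.1, R 4.3.3 and edgeR 4.0.16 (TMM factors only) were used. Some list genes and markers are counted but not reported by name here.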

Additional observations from a re-analysis of the deposited data

Results flagged for a closer look

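SOX9 was lower in ENCC than in the other kept cells at day 10 and higher at day 15. SOX4 was near level at day 10 and lower in ENCC at day 15. The log2 ratio of ENCC over all other kept cells was -0.94 for SOX9 at day 10 and 0.78 at day 15, and for SOX4 it was 0.0733 at day 10 and -0.98 at day 15. Neither difference between the stages was tested, since each stage is 1 library, and the other cells are mostly NEP at day 10 and most often CP1 at day 15.

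The cells that the depositors' quality filters removed also held SOX counts, outside every comparison above. At day 10, 2332 removed cells (median 3679 UMIs) gave 16.4 CPM for SOX2, 3.56 CPM for SOX3, 0.396 CPM for SOX21, 417 CPM for SOX4, 168 CPM for SOX11, 15.4 CPM for SOX5, 4.69 CPM for SOX6, 3.70 CPM for SOX8, 10.7 CPM for SOX9 and 53.1 CPM for SOX10. SOX3 was above its level in all kept cells (1.59 CPM) and SOX10 below (84.6 CPM). At day 15, 984 removed cells (median 21367 UMIs) gave 14.0 CPM for SOX2, 0.325 CPM for SOX3, 436 CPM for SOX4, 463 CPM for SOX11, 17.99 CPM for SOX5, 6.98 CPM for SOX6, 5.93 CPM for SOX8, 25.0 CPM for SOX9 and 64.4 CPM for SOX10. SOX11 was above its kept-cell level of 242 CPM and SOX10 below 95.8 CPM. At both stages the removed cells thus stood higher in SOX11 and lower in SOX10 than the kept ones.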

How the results depend on the processing

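No member past 2-fold changed direction under any alternative run; within 2-fold, the sign changed for SOX6 in CP (-0.07 to 0.23, log2) and SOX8 between stages (-0.29 to 0.39). With 1 library per stage no replicate could be left out. No paired analysis was possible because each stage has 1 library. Members lower in NEP at day 10 numbered 2 instead of 1 under TMM, a pseudocount of 0.1 CPM, numbered subclusters only, and without the 6% of cells with the most UMIs. Members higher in NEP numbered 1 instead of 0 with a mean over cells, G1 cells, no minimum CPM, and without those 6%. Members lower in CP1 numbered 5 instead of 3 under TMM. Subcluster counts were 1 instead of 2 with a pseudocount of 5 CPM at both days and under TMM at day 15. Over all genes, the share lower was 5.84% (TMM) or 1.70% (no minimum) against 2.71% in NEP, 1.16% against 2.10% in CP (pseudocount 5 CPM), 11.3% against 6.36% in CP1 (TMM), and 3.44% (pseudocount 5 CPM) or 8.17% (G1) against 5.39% between stages. The share higher between stages was 4.43% without a minimum, against 8.10%. Between subclusters it was 6.07% (pseudocount 5 CPM) or 20.9% (G1) against 11.3% at day 10, and 16.5% against 25.9% at day 15 (pseudocount 5 CPM). The causes were not tested. The stage log2 ratio of SOX9 ranged from 1.45 to 2.03 and that of SOX11 from 1.01 to 1.29, including within phases and without shared barcodes, 2 alternatives chosen after seeing the data. Across alternatives, 37 member log2 ratios moved and 323 did not. The limit was their counting error, or a fixed log2 difference for the runs within phases. Few UMIs limit SOX21, SOX3 in ENCC, SOX8, and in CP2 and Mes the members other than SOX4 and SOX11.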
